A study of Mus musculus with 32 samples.

Results

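The genes described here encode the SR proteins and the heterogeneous nuclear ribonucleoproteins (hnRNPs). They were taken by symbol from the table of reads on the 3′UTRs of each gene, as every symbol beginning with Srsf and a digit, the symbols Tra2a and Tra2b, and every symbol beginning with Hnrnp or the older Hnrp, with pseudogene symbols left out. This gave 34 of 44081 genes, 13 for SR proteins and 21 for hnRNPs. SR proteins carry RNA recognition motifs and a region rich in arginine and serine. They bind exons in the nucleus, recruit the spliceosome and favour the use of the exons they bind, and several also accompany the spliced mRNA to the cytoplasm. The hnRNPs coat new transcripts, often oppose SR proteins in splicing, and in neurons some of them travel with mRNAs into dendrites and axons. For most of these proteins the place of work is the nucleus, which lies in the soma, so the comparison asks where in the neuron the mRNAs that encode them were found.

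Single hippocampal neurons from C57BL/6 mouse embryos at embryonic day 18 were kept in culture for 15 days, and the labels give no treatment or genotype. Each neuron was cut with a micropipette, and its soma and its dendrites went into separate tubes. Polyadenylated RNA was amplified by the aRNA method, which copies RNA by repeated in vitro transcription, and sequenced with strand-specific libraries. The 16 neurons gave 16 dendrite and 16 soma libraries, paired by neuron. The labels give 3 rounds of amplification for neurons 1 to 4 and 2 rounds for the other 12, and an ERCC spike-in dilution for 14 of the neurons (3 to 16).

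Dendrite libraries held 646521 to 6954420 reads on 3′UTRs and soma libraries 925525 to 21169974. The dendrite libraries of neurons 15 and 16 stood apart, with 1570 and 2485 genes at 10 or more reads against 3794 to 9871 in the other dendrites, and with 35.8% and 32.4% of their 3′UTR reads from the mitochondrial genome. For the members, the numbers of genes called in the main test, detected and present are therefore also given without neurons 15 and 16. The same holds for the shares of reads and the dendritic read fractions. Calls under other settings, on exons and in other gene lists, and values of single genes, include both neurons unless stated. Map2, a marker of dendrites, had reads in all 32 libraries, and the endothelial marker Cldn5 had none in any. The pyramidal neuron markers Grin1, Camk2a, Slc17a7 and Neurod6 had reads in 15, 13, 13 and 11 dendrites. In somas they had reads in 16, 14, 13 and 11. The endothelial markers Flt1, Pecam1, Ly6c1 and Tek had reads in 10, 3, 2 and 1 dendrites, and in 9, 6, 6 and 2 somas. Summed over 5 markers, astrocyte reads ranged from 0 to 1171 normalized reads per dendrite library (median 95.9) and from 0 to 529 per soma library (median 37.1), where normalized reads are counts divided by a size factor for each library. For 5 microglia markers the range was 0 to 1224 in dendrites (median 2.29) and 0 to 30.7 in somas (median 0.420). For 5 oligodendrocyte markers it was 0 to 422 in dendrites (median 15.9) and 0 to 379 in somas (median 4.42), and for 5 endothelial markers 0 to 139 (median 7.36) and 0 to 348 (median 1.44). Single libraries of both compartments thus held reads of glial or endothelial markers, and the part of such RNA in the results was not tested.

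The reads counted here come from the 3′ ends of the mRNAs, and 2 small families in which close relatives gave different values are shown by the end of their 3′UTR. Each run has 30 bases around the poly(A) signal nearest the annotated end (GENCODE M21, build GRCm38), with the signal AATAAA in capitals.

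Tra2a: agtaatttcaAATAAAagttaatttgaaaa
Tra2b: atgcaatgAATAAAatactacagttttaag
Hnrnph1: ccttgtcaAATAAAtcttccttttaaaagc
Hnrnph2: acttgttaAATAAAtcttccttttaaaaac
Hnrnph3: ttattaatgtAATAAAtgtcaacatgggaa
Hnrnpf: tttcttaaAATAAAgactttttcacaatga

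Tra2a (chr6:49243924-49264033, minus strand) and Tra2b (chr16:22244549-22266005, minus strand) encode the SR-like proteins that bind GAA-rich exon enhancers, and the letters around their signals differed. Hnrnph1 (chr11:50376990-50386528, plus strand) and Hnrnph2 (chrX:134601179-134607060, plus strand) encode near-identical proteins that bind runs of G, and 27 of the 30 bases shown were identical at the same positions. Hnrnph3 (chr10:63014664-63024217, minus strand) and Hnrnpf (chr6:117900324-117925622, plus strand) belong to the same family. Only uniquely mapped reads were counted by the authors, so reads that Hnrnph1 and Hnrnph2 share would be lost from both genes, and their values are uncertain to that extent. The signal AATAAA, searched on the mRNA strand in the last 50 bases of the longest annotated 3′UTR, was in 9 of 13 SR protein genes and 14 of 20 hnRNP genes, beside 64.5% of the 9111 tested genes with an annotated 3′UTR. The median 3′UTR was 1539 bases long in SR protein genes, 1194.5 in hnRNP genes and 1429 in all 9111. GC content had a median of 35.9% and 37.8% in the SR protein and hnRNP 3′UTRs, beside 43.9% in all.

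Reads of 28 of the 34 genes were found in all 16 somas, and the dendrites held a varying part of them. With at least 10 reads as the minimum, somas held 12.3 ± 1.29 of the 13 SR protein genes (SD, n = 16, range 8 to 13) and dendrites 7.06 ± 3.49 (range 0 to 12). Somas held 19.0 ± 1.37 of the 21 hnRNP genes (range 16 to 20) and dendrites 12.1 ± 4.80 (range 1 to 19). Over all genes, somas held 9206 ± 1644 genes at 10 or more reads and dendrites 5827 ± 2064 (SD, n = 16). The dendrite mean was thus 57.7% of the soma mean for SR protein genes and 63.8% for hnRNP genes, beside 63.3% for all genes. Without neurons 15 and 16, dendrites held 7.93 ± 2.73 SR protein and 13.4 ± 3.54 hnRNP genes (SD, n = 14) and somas 11 to 13 and 16 to 20, and the 3 percentages were 63.4%, 70.6% and 68.4%. The percentages of both families lay near that of all genes. The soma of the same neuron held more SR protein genes than its dendrites in 16 of 16 neurons, and more hnRNP genes in 14, with 1 neuron the other way. The dendrites of neuron 16 had no SR protein gene at 10 reads, and those of neuron 2 had 12 of 13. When both libraries of each pair were sampled down to the same number of reads, somas held 12.0 ± 1.51 and 18.4 ± 1.89 genes and dendrites 7.06 ± 3.49 and 12.1 ± 4.80, so the gap of 5.19 SR protein genes per neuron became 4.94 and the gap of 6.88 hnRNP genes became 6.25. In the plot of genes detected by neuron, the soma points lie near the dotted upper line and the dendrite points spread from the bottom to the top.

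**Figure D1:**
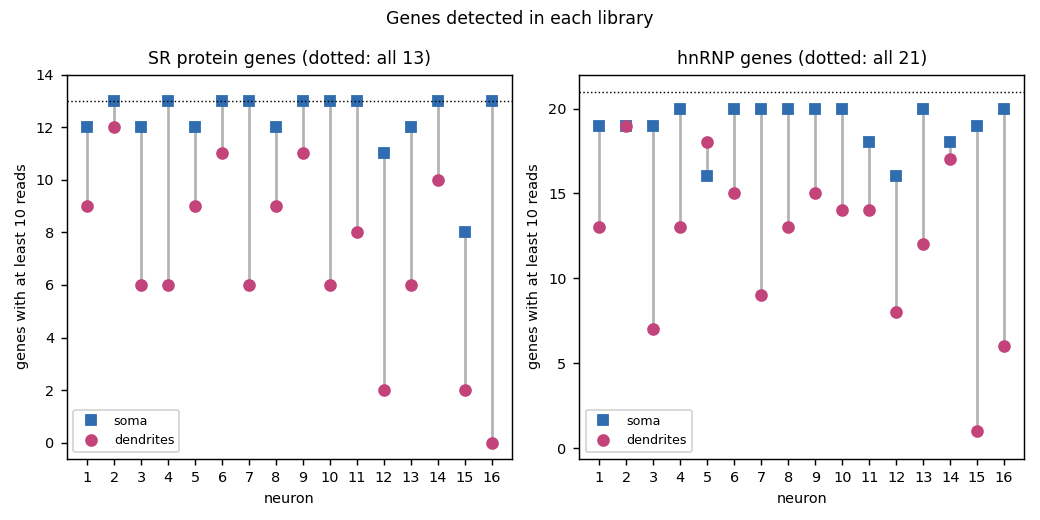
Number of SR protein genes (left, of 13) and hnRNP genes (right, of 21) with at least 10 reads on the vertical axis, by neuron on the horizontal axis, with somas as blue squares and dendrites as pink circles joined within each neuron. Somas lie between 8 and 13 and between 16 and 20, and dendrites between 0 and 12 and between 1 and 19.

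SR protein mRNAs made up 0.134% ± 0.0422 of the 3′UTR reads of somas (SD, n = 16) and 0.0717% ± 0.0362 of those of dendrites, and the share was higher in the soma in 14 of 16 neurons. The hnRNP mRNAs made up 0.278% ± 0.0569 of soma reads and 0.117% ± 0.0610 of dendrite reads, and the share was higher in the soma in 16 of 16 neurons. Without neurons 15 and 16, the SR protein share was 0.141% in somas and 0.0744% in dendrites, and the hnRNP share 0.285% and 0.128%. The dendrites of neuron 15 reached 0.105% for SR proteins through 1 gene, since Srsf12 gave 2332 of the 2358 SR protein reads of that library and had 0 reads in the soma of the same neuron. Within the neurons of 2 rounds of amplification the SR protein share was 0.118% in somas and 0.0653% in dendrites, and within those of 3 rounds it was 0.183% and 0.0908%. The hnRNP share was 0.261% and 0.108% with 2 rounds, and 0.329% and 0.145% with 3.

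The heat map of all 34 genes in all 32 libraries shows the same contrast gene by gene. Reads in 14 or more somas were found for 32 of the 34 genes. The exceptions were Hnrnpll, with reads in 12 somas, and Hnrnpa1l2, whose symbol stands for Hnrnpa1-like, which had 3 reads in all, in the dendrites of 2 neurons, and none in somas. Hnrnpa1l2 did not reach the minimum of 1 read in 16 of 32 libraries, so 33 members were tested among 10880 genes.

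**Figure D2:**
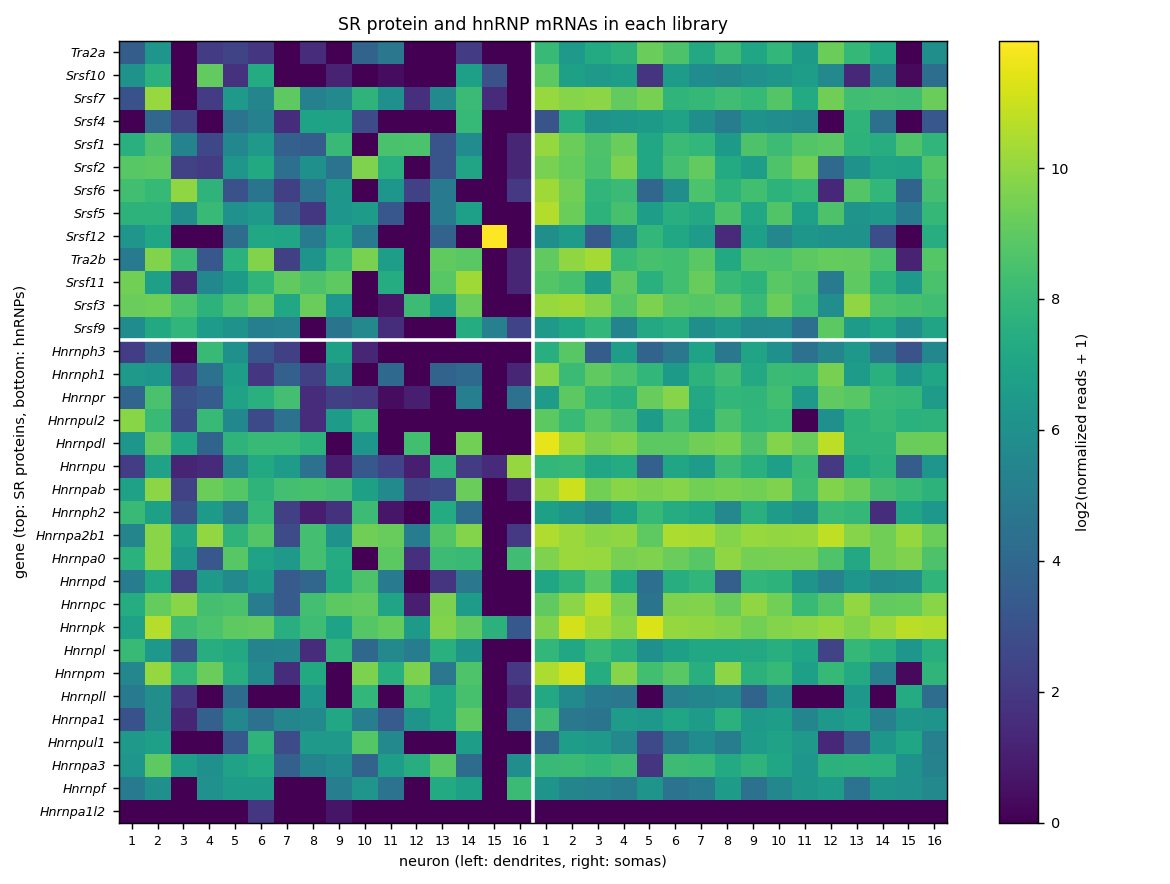
Normalized reads of each gene on a log2 scale after adding 1 (colour), with SR protein genes above the white line and hnRNP genes below it, and with the dendrites of neurons 1 to 16 on the left and their somas on the right. Somas are evenly coloured across most genes, while dendrites hold many cells at 0, with 16, 27 and 15 of the 33 tested genes at 0 in the dendrites of neurons 12, 15 and 16 against 0 to 9 in the other dendrites.

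Of the 33 genes tested, 6 were higher in somas and none was higher in dendrites at an adjusted p of at most 0.05 (edgeR quasi-likelihood test with the neuron as a block, Benjamini-Hochberg adjustment over 10880 genes). Among all genes tested, 5.71% were higher in somas and 0.827% in dendrites. The soma calls over all genes depended on single neurons, and fell from 621 to 130 (1.19%) without neuron 16. The SR protein genes gave 2 of 13, Tra2a and Srsf7, and the hnRNP genes 4 of 20, Hnrnph1, Hnrnpr, Hnrnph3 and Hnrnpdl. At an unadjusted p under 0.05, 8 SR protein and 11 hnRNP genes were higher in somas and none was higher in dendrites, where 26.7% of all genes were higher in somas. All 33 log2 fold changes (also called log2 differences here), given as dendrites over somas, were below 0, as were 8573 of the 10880 genes tested. The median gene had a log2 fold change of -1.49, and SR protein genes had a median of -2.48 and hnRNP genes of -2.09. On the scale of this median gene, 25 of the 33 lay below it, 12 of 13 SR protein genes and 13 of 20 hnRNP genes.

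The number called depended on the tool and the scaling. DESeq2 with the same paired design called 13 SR protein and 17 hnRNP genes higher in somas, where it called 46.2% of all genes. With ERCC reads as the scale, in the 14 neurons with a spike-in, edgeR called 13 and 17, where it called 61.4% of all genes, and the median gene lay at -3.96. With dendrite libraries rescaled so that the median gene lay near 0 (at -0.05), 25 of the 33 members lay below 0 and 8 above it, and only Tra2a was called, at a log2 fold change of -5.14 ± 1.37 (SE) and an adjusted p of 0.0149. On that scale the calls over all genes turned from 621 in somas and 90 in dendrites to 92 and 548. Without neurons 15 and 16, Tra2a, Hnrnph1 and Hnrnpr were called, where 101 of all genes (0.928%) were higher in somas, 68 were higher in dendrites and the median gene lay at -1.01.

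**Figure D3:**
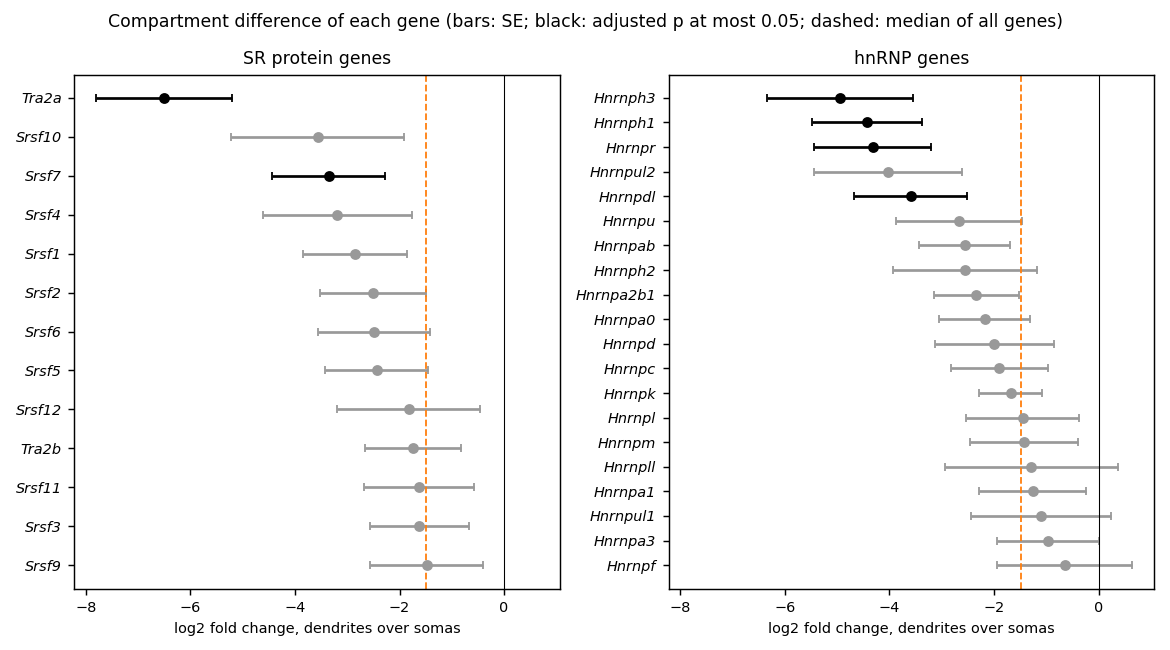
Log2 fold change of dendrites over somas (horizontal axis) with its standard error for 13 SR protein genes (left) and 20 hnRNP genes (right), with genes at an adjusted p of at most 0.05 in black and the median of all genes as a dashed line. Tra2a stands at -6.50, and the nearest hnRNP gene, Hnrnph3, at -4.95.

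Among SR proteins, the contrast was widest for Tra2a. In dendrites Tra2a had 0 to 77.3 normalized reads (median 2.28, n = 16), and in somas 0 to 610.2 (median 179). It was at 0 in 7 of 16 dendrites and in 1 soma, that of neuron 15, and 14 of 16 somas lay above the highest dendrite. The log2 fold change was -6.50 ± 1.30 (SE), with an adjusted p of 0.00714. In 15 of 16 neurons the soma was higher, and the remaining neuron had no read in either compartment. This call held when each of the 16 neurons was left out in turn, with adjusted p at most 0.0154.

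Tra2b, the close relative with the same exon-enhancer binding, had 0 to 825 normalized reads in dendrites (median 150.1) and 1.21 to 1293 in somas (median 419). The groups overlapped broadly, with 5 dendrites above the median soma. Its log2 fold change was -1.74 ± 0.92 (SE), with an adjusted p of 0.188. Within neurons, the log2 ratio of dendrites to soma (with 1 added to each value) of Tra2a minus that of Tra2b was -3.01 ± 3.44 (SD, n = 16), and it was below 0 in 12 of 16 neurons. This pair was set side by side after its values were seen, so no test is given. Tra2a lies opposite the predicted gene Gm43980, and the libraries and the counting keep the strands apart.

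Srsf7, an SR protein with a zinc knuckle that also takes part in mRNA export, had 0 to 1097 normalized reads in dendrites (median 45.4) and 155 to 1096 in somas (median 378). The soma was higher in 14 of 16 neurons, although the dendrites of neuron 2 held the top value of all 32 libraries and no soma lay above it. Its log2 fold change was -3.36 ± 1.08 (SE), with an adjusted p of 0.0490. The call was lost when any of 12 neurons was left out (1, 3, 4, 5, 6, 8, 9, 10, 12, 13, 15 or 16), with adjusted p up to 0.122. Srsf3, the smallest SR protein and another export adaptor, had 0 to 643 normalized reads in dendrites (median 249) and 56.0 to 1200.1 in somas (median 463), with 5 dendrites above the median soma and a log2 difference of -1.62 ± 0.95 (SE; adjusted p 0.233).

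Srsf1, the founding SR protein, had 0 to 391 normalized reads in dendrites (median 43.4) and 90.6 to 1059.7 in somas (median 343). Every neuron (16 of 16) had more in its soma, and 7 somas lay above the highest dendrite. The log2 fold change was -2.85 ± 1.00 (SE), and the adjusted p of 0.0655 did not reach the threshold. Srsf2, used as a mark of nuclear speckles, had 0 to 791 normalized reads in dendrites (median 43.0) and 16.2 to 776 in somas (median 348), and the soma was higher in 14 of 16 neurons, with a log2 difference of -2.51 ± 1.01 (SE; adjusted p 0.0979). Srsf5 had 0 to 263 normalized reads in dendrites (median 61.9) and 28.9 to 1501 in somas (median 197), and the soma was higher in 15 of 16 neurons, with a log2 difference of -2.44 ± 0.98 (SE; adjusted p 0.0982). These 3 genes had the smallest p among SR protein genes that were not called, and their somas were higher in nearly every neuron.

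The other 6 SR protein genes, Srsf4, Srsf6, Srsf9, Srsf10, Srsf11 and Srsf12, had log2 fold changes from -3.57 (Srsf10) to -1.48 (Srsf9), with adjusted p from 0.117 to 0.345. Srsf10, a splicing repressor under heat shock, was at 0 in 7 dendrites and reached 540.2 normalized reads in the dendrites of neuron 4. Srsf4 had reads in 9 dendrites, and Srsf6 in 13. Srsf12 had the widest range, from 0 in 6 dendrites to 3942 normalized reads in the dendrites of neuron 15.

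Among hnRNPs, the family that binds runs of G held both ends of the range. Hnrnph1 had 0 to 100.1 normalized reads in dendrites (median 12.3) and 76.9 to 886 in somas (median 251). The soma was higher in 16 of 16 neurons, and 13 somas lay above the highest dendrite. Its log2 fold change was -4.43 ± 1.05 (SE), with an adjusted p of 0.0138, and the call held when each neuron was left out in turn (adjusted p at most 0.0343). Hnrnph3 was at 0 in 8 of 16 dendrites and reached 264 normalized reads in those of neuron 4 (median 0.731), and in somas it had 7.28 to 464 (median 44.4). In 14 of 16 neurons the soma was higher, with a log2 difference of -4.95 ± 1.39 (SE; adjusted p 0.0285). That call was lost when neuron 1, 3, 12, 13, 15 or 16 was left out, with adjusted p up to 0.0788, and without neurons 15 and 16 together (adjusted p 0.0929).

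Hnrnpf, the remaining relative along with Hnrnph2, had the smallest difference of all 33 genes. It had 0 to 279 normalized reads in dendrites (median 47.9) and 20.9 to 97.3 in somas (median 47.3). The dendrites were higher in 9 of 16 neurons, 5 dendrites were at 0, and no soma lay above the highest dendrite. With a log2 fold change of -0.65 ± 1.29 (SE), it had an adjusted p of 0.738. Within neurons, the log2 ratio of Hnrnph1 minus that of Hnrnpf was -3.26 ± 2.90 (SD, n = 16) and lay below 0 in 14 of 16 neurons, a pair that was again chosen after its values were seen. Hnrnph2 had 0 to 293 normalized reads in dendrites (median 12.2) and 1.98 to 284 in somas (median 109), with a log2 difference of -2.56 ± 1.38 (SE; adjusted p 0.195), and the ratio of Hnrnph1 was lower than that of Hnrnph2 in 10 of 16 neurons.

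**Figure D4:**
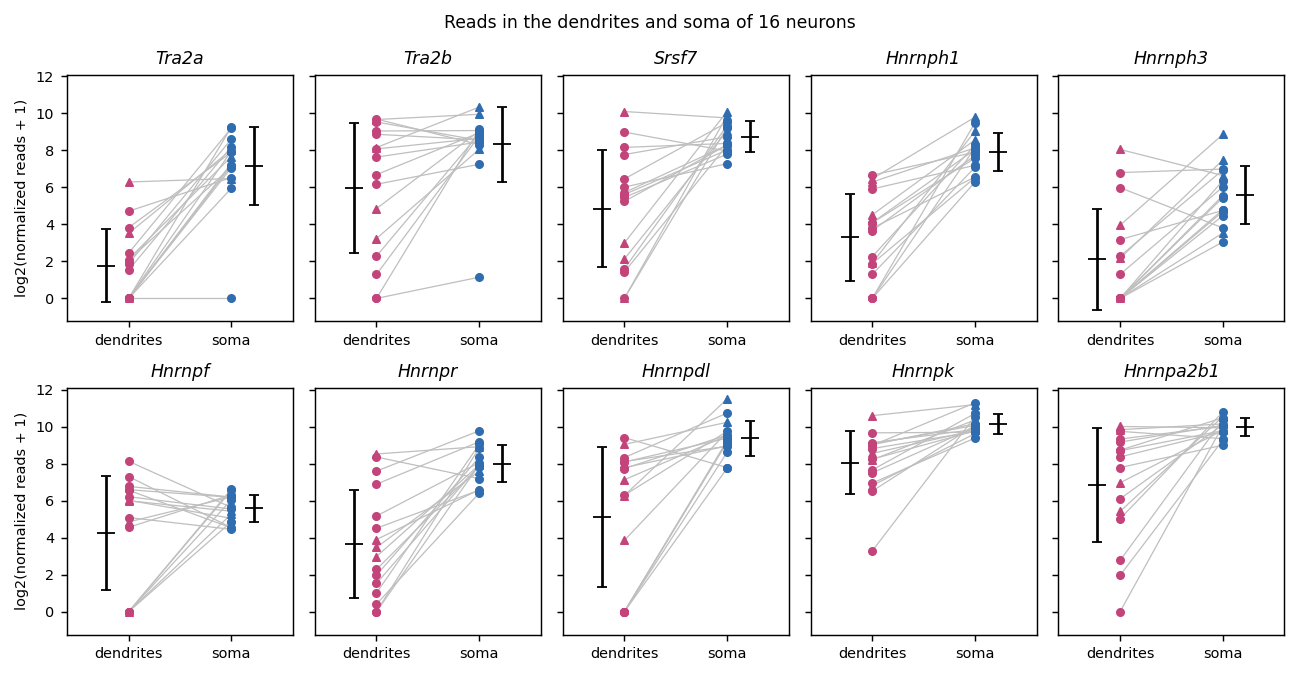
Log2 of normalized reads plus 1 (vertical axis) in the dendrites and the soma of 16 neurons for 10 genes, with neurons joined by grey lines, circles for 2 rounds and triangles for 3 rounds of amplification, and the mean with its SD in black. For Tra2a and Hnrnph1 nearly every line rises from dendrites to soma, while for Hnrnpf the dendrites were higher in 9 of 16 neurons.

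Hnrnpr, whose protein binds β-actin mRNA in the axons of motor neurons, had 0 to 367 normalized reads in dendrites (median 8.50) and 83.8 to 874 in somas (median 244). The soma was higher in 15 of 16 neurons, and 2 dendrites lay above the median soma. Its log2 fold change was -4.32 ± 1.12 (SE), with an adjusted p of 0.0191, and the call held when each neuron was left out in turn (adjusted p at most 0.0463). Hnrnpdl, a relative of the AU-rich-element binding protein Hnrnpd, had 0 to 679 normalized reads in dendrites (median 108) and 214 to 2879 in somas (median 635). In 15 of 16 neurons the soma was higher, with a log2 difference of -3.59 ± 1.08 (SE; adjusted p 0.0362). That call was lost when neuron 1, 3, 4, 9, 10, 12, 13, 15 or 16 was left out, with adjusted p up to 0.0934.

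Reads in at least 15 of 16 dendrites were found for 6 of the 33 genes (18.2%), a share near the 17.1% of all genes tested. They were Hnrnpk, Hnrnpu, Hnrnpa1, Hnrnpa2b1, Hnrnpa3 and Hnrnpab, and no SR protein gene was among them. That lack rested on the dendrites of neurons 15 and 16. Without these, 6 of 13 SR protein genes (Srsf1, Srsf2, Srsf3, Srsf5, Srsf7 and Tra2b) and 13 of 20 hnRNP genes had reads in at least 13 of 14 dendrites, together 57.6% of the 33, beside 29.0% of all genes tested. Presence in this sense needs 1 read only, and Hnrnpu had as little as 0.893 normalized reads in a dendrite where it was present.

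Hnrnpk, a KH-domain protein that binds C-rich RNA, had 8.71 to 1546 normalized reads in dendrites (median 339) and 667 to 2497 in somas (median 1039). It had reads in all 32 libraries, yet the soma was higher in 16 of 16 neurons. Its log2 fold change was -1.68 ± 0.60 (SE), with an adjusted p of 0.0685, and it lay 0.19 below the median gene on the log2 scale. Its dendritic read fraction, the dendrite's part of the normalized reads of both compartments, was 0.237 ± 0.135 (SD, n = 16), between 0.00579 and 0.494.

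Hnrnpa2b1 and Hnrnpab encode proteins that bind the A2 response element of mRNAs carried along dendrites. Hnrnpa2b1 had 0 to 1029.9 normalized reads in dendrites (median 275) and 511 to 1763 in somas (median 1045), and 9 somas lay above the highest dendrite. Hnrnpab had 0 to 937 in dendrites (median 164) and 207 to 2097 in somas (median 718), and 2 somas lay above the highest dendrite. The soma was higher in 14 of 16 neurons for Hnrnpa2b1 and in 15 for Hnrnpab. Their log2 fold changes were -2.34 ± 0.81 and -2.56 ± 0.87 (SE), with adjusted p of 0.0646 and 0.0603, just outside the threshold.

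Hnrnpa1, an antagonist of Srsf1 in the choice of splice sites, had 0 to 500.3 normalized reads in dendrites (median 38.1) and 23.6 to 304 in somas (median 83.2). Hnrnpa3, which also binds the A2 response element, had 0 to 512 in dendrites (median 69.5) and 2.61 to 291 in somas (median 208). The groups overlapped broadly for both, with the soma higher in 12 and 11 of 16 neurons. Their log2 fold changes were -1.26 ± 1.02 and -0.97 ± 0.97 (SE, adjusted p 0.382 and 0.487). With dendrites rescaled to the median gene they turned to 0.22 and 0.52, as did Hnrnpf to 0.84, Hnrnpul1 to 0.38, Hnrnpll to 0.12, Hnrnpm to 0.05, Hnrnpl to 0.04 and Srsf9 to 0.0062.

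Hnrnpu, a nuclear scaffold protein, had 0.893 to 1062 normalized reads in dendrites (median 6.52) and 2.95 to 290.2 in somas (median 142). The median lay far lower in dendrites, but no soma lay above the highest dendrite, that of neuron 16. The log2 fold change was -2.67 ± 1.21 (SE), with an adjusted p of 0.132. These values depend on the table. The gene table held 1017 Hnrnpu reads in dendrites and 6611 in somas, while its single 3′ ends held 2205 and 24878 and its exons 4354 and 33527. In the dendrites of neurons 3, 4 and 9 the gene table gave 1, 1 and 3 reads where the ends gave 35, 201 and 522, and in those of neuron 16 it gave 731 where the ends gave 1. On exons the log2 fold change was -1.33 (adjusted p 0.274). The cause of the disagreement was not tested. Hnrnpc, which binds uridine tracts of nuclear RNA, had 0 to 901 in dendrites (median 250.0) and 23.4 to 1730.2 in somas (median 708), with the soma higher in 15 of 16 neurons and a log2 difference of -1.89 ± 0.92 (SE; adjusted p 0.157). Hnrnpul2, related to Hnrnpu, was at 0 in 6 dendrites and reached 910.1 in those of neuron 1 (median 5.44), with 0 to 496 in somas (median 238) and a log2 difference of -4.03 ± 1.42 (SE; adjusted p 0.0673). The annotation has the gene AC129217.1 on the same strand over Hnrnpul2, so reads of the pair cannot be told apart where they overlap.

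The other hnRNP genes not yet given, Hnrnpa0, Hnrnpd, Hnrnpl, Hnrnpll, Hnrnpm and Hnrnpul1, had log2 fold changes from -2.18 (Hnrnpa0) to -1.10 (Hnrnpul1), with adjusted p from 0.0954 to 0.590. Hnrnpm, a splicing repressor, had 0 to 1068 normalized reads in dendrites (median 164) and 0.243 to 2178 in somas (median 239), with the soma higher in 11 of 16 neurons and a log2 difference of -1.43 ± 1.04 (SE; adjusted p 0.333), and March2 overlaps it on the same strand. Hnrnpll, which shapes splicing in lymphocytes, was at 0 in 6 dendrites and in 4 somas. In the gene table, neurons 5, 12 and 14 had 8, 246 and 220 reads in the dendrites and 0 in the soma, but the table of single 3′ ends held 100, 7 and 15 Hnrnpll reads in those 3 somas. Hnrnpll and Hnrnpu were the only members with more reads on their ends than in the gene table, by 2.64 and 3.55 times, and the gene table's low values for both are uncertain.

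The dendritic part of a gene's reads differed widely between neurons. Across the 33 genes, the mean dendritic read fraction ran from 0.0557 for Tra2a to 0.420 for Hnrnpul1, with a median of 0.254 and SDs between 0.0999 and 0.418. Of 509 combinations of gene and neuron with at least 10 normalized reads, 35.2% had under 0.05 of their reads in the dendrites and 19.1% had over 0.5. The mean fraction was 0.0820 ± 0.0999 for Hnrnph1 (SD, n = 16) and 0.394 ± 0.418 for Hnrnpll (SD, n = 15), where it reached both 0 and 1. The Hnrnpll fractions of 1 came from neurons 5, 12 and 14, whose somas held 100, 7 and 15 reads on single 3′ ends. These fractions are uncertain to that extent. By neuron, 16 (neuron 14) to 31 (neuron 3) of the 33 genes were higher in the soma, with a median of 27. Over all genes tested, 8573 of 10880 had a log2 fold change below 0. The counts by neuron and the fractions were not computed over all genes, so a trait of these families cannot be read from them. Without neurons 15 and 16 the mean fraction ran from 0.0596 for Tra2a to 0.490 for Hnrnpul1 (median 0.258), and 29.1% of 450 combinations lay under 0.05 and 20.7% over 0.5. Neuron 14 was the only neuron with more genes higher in its dendrites (17) than in its soma (16).

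The compartment difference had the same sign in both amplification batches for most genes. In the 12 neurons with 2 rounds, the log2 fold change was below 0 in 33 of 33 genes, with a median of -2.45, and in the 4 with 3 rounds it was below 0 in 30 of 33, with a median of -1.96. The medians of all genes were -1.73 and -0.62. A test of the difference between the batches (an interaction term in the same edgeR fit) gave no member with an unadjusted p under 0.05. Over all genes tested, 288 of 10880 had one, so none among 33 is no result about the members. The smallest p among members in that test was 0.0670 for Hnrnpul2. Hnrnpul2 lay at -5.77 with 2 rounds and at -0.25 with 3, and Srsf6, Srsf9 and Hnrnph2 turned from -3.65, -2.45 and -4.14 to 0.10, 0.80 and 0.40. Tra2a lay at -7.26 with 2 rounds and at -4.18 with 3, and Hnrnph1 at -4.81 and -3.36.

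Reads on exons, a second count of the same libraries, gave 4 of 31 members higher in somas, Tra2a, Hnrnph1, Hnrnpr and Hnrnpdl, where 2.62% of all genes were called. Tra2a had a log2 fold change of -5.77 there (adjusted p 0.00906) and Hnrnph1 of -3.66 (adjusted p 0.0427). Srsf7 and Hnrnph3 had -2.81 and -4.42, with adjusted p of 0.0920 and 0.0664. Hnrnpa1 and Hnrnpul1 had exon reads in 2 and 14 of the 32 libraries and were not tested there, although their 3′UTRs held 5077 and 4188 reads. Hnrnpm lay at -0.20 on exons (adjusted p 0.903). Hnrnpk lay at -1.35 (adjusted p 0.462), with 5551 exon reads beside 51649 on its 3′UTR. Hnrnpc had the lowest share of its gene reads on single 3′ ends, 0.255, beside a median of 0.963 over the members.

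Other mRNAs of the same pathways gave few calls, all of them higher in somas. Among all genes tested, 5.71% were called higher in somas, and the median gene lay at -1.49. The calls of these lists were not repeated without neurons 15 and 16, where the soma calls over all genes fell from 621 to 101. Of 10 SR protein kinases and import receptors, 9 were tested and none was called (5 at an unadjusted p under 0.05, all higher in somas, as were 26.7% of all genes), with a median log2 fold change of -3.33. The kinases Clk1 and Clk4, which phosphorylate SR proteins in the nucleus, had -5.14 ± 1.71 and -4.14 ± 1.50 (SE), with adjusted p of 0.0560 and 0.0730. Srpk1, a cytoplasmic kinase, had -3.33 ± 1.36 (SE, adjusted p 0.103). The kinase Srpk2 had -0.08 ± 0.83 (SE, adjusted p 0.954). Of the rest, Clk2 and Clk3 lay at -3.71 and -3.68, and the import receptors Tnpo1, Tnpo2 and Tnpo3 at -0.89, -0.52 and -2.23. Of 12 SR-related splicing proteins tested, 2 were higher in somas, Scaf11 at -4.82 ± 1.51 (SE, adjusted p 0.0440) and Srek1 at -4.14 ± 1.34 (SE, adjusted p 0.0498), and none was higher in dendrites, with a median of -2.31. Of 14 tested hnRNP proteins with other symbols, 1 was higher in somas and none in dendrites, with a median of -2.60. This was Rbmx, at -4.29 ± 1.31 (SE, adjusted p 0.0407), and Ptbp2, the neuronal polypyrimidine tract binding protein, had -3.35 ± 1.12 (SE, adjusted p 0.0569). Rbmxl1 had -5.22 ± 1.71 (SE, adjusted p 0.0515), and 13 of the 14 lay below 0, with Pcbp2 at 0.0015.

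For scale, 5 housekeeping genes had a median log2 fold change of -0.62, and none was called in either direction. The 5 pyramidal neuron markers had a median of 1.25, with 1 of them below 0. Of these markers, 1 was called higher in dendrites, Map2 at 2.66 ± 0.49 (SE, adjusted p 0.00202). Of 5 RNAs known to stay in the nucleus, none was called, and their median was -1.29. Their summed level was 0 to 5382 normalized reads in dendrites (median 1119) and 32.4 to 34024 in somas (median 3450.3), and it was higher in the soma in 10 of 16 neurons. Malat1 had reads in 14 dendrites and 15 somas. The part of nuclear RNA in the differences between compartments was not tested.

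Most of these genes have several 3′ ends, and reads on the terminal 500 nt of every end were counted apart. The 34 genes had 112 ends, with 11 genes at 1 end and 23 at 2 or more, and end 1 is the most distal. The distal fraction is the distal end's part of the reads on the top 2 ends of a gene. It could be compared in 20 members and 3508 genes with at least 10 reads in both compartments of at least 5 neurons. An exact two-sided signed-rank test gave p under 0.1 for 2 of the 20, Hnrnpu and Hnrnpm, where it did so for 8.44% of all genes, and neither passed the Benjamini-Hochberg adjustment over all 3508 genes (adjusted p 0.818 and 0.949).

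Hnrnpu, whose tables disagree as given above, had its reads on ends 4 and 5, and the distal fraction was 0.922 to 1 in dendrites (median 1) and 0.844 to 1 in somas (median 0.978). It was higher in the dendrites in 7 of 9 neurons and tied in 2, and the mean difference was 0.0398 ± 0.0379 (SD, n = 9), with an exact p of 0.0156. Hnrnpm gave its reads to ends 1 and 4, with 0.547 to 1 in dendrites and 0.997 to 1 in somas. The dendrites were lower in 5 of 12 neurons, higher in 1 and tied in 6 (mean difference -0.0491 ± 0.130, SD, n = 12, exact p 0.0625). This mean rested on neuron 5, at 0.547 in dendrites and 1 in the soma, and without it the mean difference was -0.0123 ± 0.0251 (SD, n = 11, exact p 0.125). With at least 20 reads Hnrnpm had a p of 0.125, and Hnrnpa3 lay under 0.1 in its place (mean difference 0.271, exact p 0.0938). In somas, both genes had nearly all of these reads on 1 end.

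The choice of end scattered more between neurons in dendrites than in somas. The SD of the distal fraction was larger in dendrites for 15 of the 20 members (75.0%), beside 67.5% of all 3508 genes. For Hnrnpk it was 0.802 ± 0.305 in dendrites and 0.916 ± 0.0406 in somas (SD, n = 15), with the dendrites of neuron 15 at 0. For Srsf3 it was 0.493 ± 0.459 and 0.360 ± 0.167 (SD, n = 12), with 3 dendrites at 0, 3 at 1 and all somas between 0.0408 and 0.603. A fraction at or beyond 0.05 or 0.95 was found in 73.4% of the 192 dendrite values of members and in 43.2% of the soma values, beside 76.4% and 67.5% over all genes. The dendrite values rested on fewer reads, with a median of 213 against 2136 for Hnrnpk and 122 against 544 for Srsf3, and the part of read depth in this scatter was not tested.

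**Figure D5:**
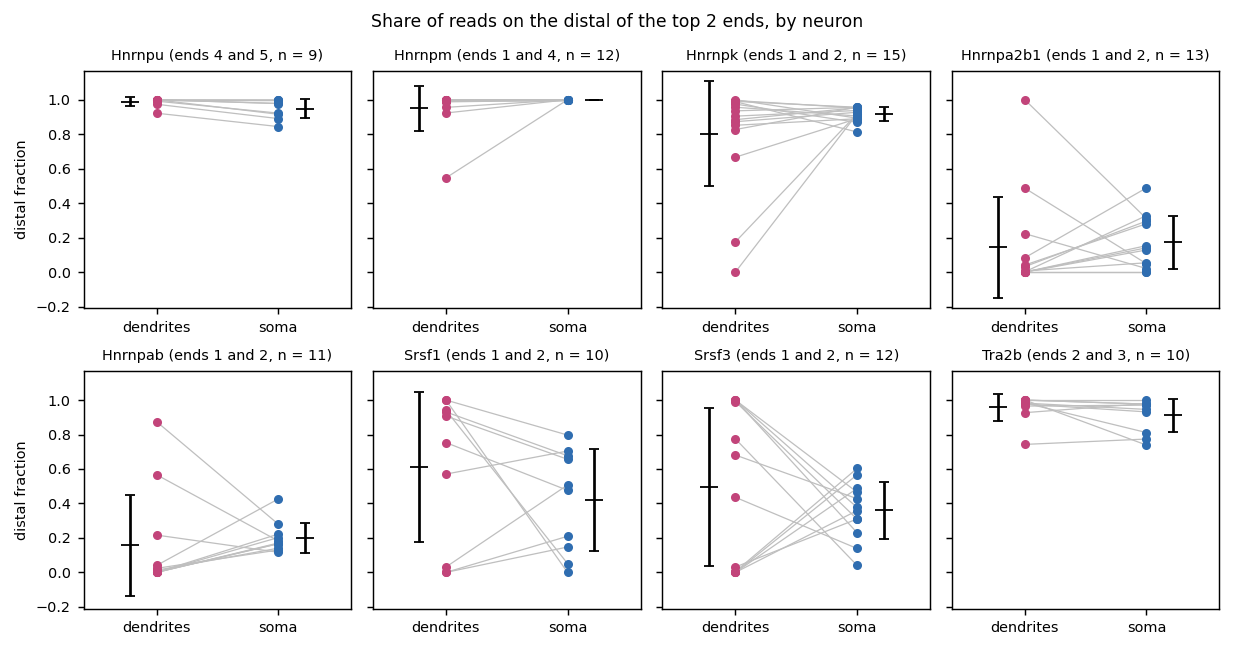
Distal fraction of the top 2 ends (vertical axis) in dendrites and somas for 8 genes, with neurons joined by grey lines and the mean with its SD in black. For Srsf3 the dendrites run from 0 to 1 and the somas from 0.0408 to 0.603, while for Hnrnpu all values lie above 0.84.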

How the data were processed

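Single neurons gave 1 dendrite and 1 soma library each, grouped by the compartment and cell number in the labels. The authors aligned reads to mm10 with STAR 2.4.0 and counted uniquely mapped reads with VERSE; the deposited values are raw read counts on 3′UTRs per gene, on the terminal 500 nt of 74532 3′ ends and on exons (23453 genes), without molecular identifiers. Counts on 3′UTRs with at least 1 read in 16 of 32 libraries were tested with edgeR 4.0.16 in R 4.3.3. The fit used TMM, robust quasi-likelihood and the neuron as a block, and DESeq2 1.42.0 was an alternative. The edgeR fit was also run on simulated counts that held no neuron effect and as many rises as falls. That run cannot check the scaling. Standard errors are the log2 fold change divided by the square root of F. Normalized reads are counts divided by DESeq2 size factors. Same-neuron deviations of the 2 compartments correlated at 0.0851 ± 0.0741 over genes (SD, n = 16) and those of different neurons at -0.00533; the pairing comes from the labels, which give both compartments of 1 cell the same number. The neurons came from several cultures, which the labels do not give. Culture was therefore not modelled, and neurons of the same culture may not be independent. Distal fractions were compared by exact signed-rank tests (SciPy 1.17.1). P-values measure the spread between neurons. Genes given in full were those called, those with reads in 15 or more dendrites, the 3 nearest to the threshold in each family, those with a distal fraction p under 0.1, and the best known members. The members and lists were chosen with earlier results of these data known. Coordinates, 3′UTRs and sequences are from GENCODE M21 (GRCm38, the assembly named mm10); 33 of 34 symbols matched.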

Additional observations from a re-analysis of the deposited data

Results flagged for a closer look

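Spike-in reads were found where the labels give none. The 4 libraries of neurons 1 and 2, whose labels give a spike-in dilution of 0, held 59 to 80 ERCC reads each, beside 3083 to 283471 in the 28 libraries with a dilution. The ERCC scaling above leaves both neurons out. No SR protein or hnRNP gene differed between 2 and 3 rounds of amplification at an adjusted p of at most 0.05, nor moved one way in every neuron of one batch and the other way in every neuron of the other.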

How the results depend on the processing

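No member was called higher in dendrites under any alternative. The 2 SR protein calls became 13 with DESeq2 or ERCC scaling, 0 in the 3-round neurons alone, and 1 with dendrites rescaled to the median gene, TMM in the 14 neurons with a spike-in, no filter, a filter of 10 reads, exon counts, the 2-round neurons alone, equal reads per pair, or without neurons 15 and 16, and 1 to 2 with each neuron left out. The 4 hnRNP calls became 17 with DESeq2 or ERCC scaling, 8 with DESeq2 size factors in edgeR, 0 with dendrites rescaled or in the 3-round neurons alone, 2 in the 2-round neurons alone or without neurons 15 and 16, and 2 to 5 with each neuron left out. Without the replicate block, which drops the pairing by neuron, 1 SR protein and 1 hnRNP gene were called, the median gene lay at -0.22, and 29 of 33 members were below 0. With dendrites rescaled, 8 of 33 members turned above 0, among them Hnrnpa1, Hnrnpa3 and Hnrnpm at 0.22, 0.52 and 0.052. Without neuron 5, the Hnrnpm distal fraction difference was -0.0123. In the 2-round neurons alone, 1 member instead of 2 had a distal fraction p under 0.1. The causes were not tested. Neurons 15 and 16 left out, neuron 5 left out for Hnrnpm, and TMM in 14 neurons were chosen after seeing the data. Tra2a was called in all 16 fits without 1 neuron and in 12 of 13 other alternatives, Hnrnph1 in 16 and 11, and Hnrnpr in 16 and 10; Hnrnph3, Hnrnpdl and Srsf7 were called in 10, 7 and 4 of the 16. Reads at or near 0 in dendrites limit the precision of fold changes, which then depend on the prior count of the fit. Other prior counts were not tried.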
